A study of Homo sapiens with 14 samples.

Results

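Genes for splicing factors and heterogeneous nuclear ribonucleoproteins (hnRNPs) were followed through RNA sequencing of 2 human leukaemia lines in which EZH2 or cMyc had been targeted. Members were every row whose symbol is an SRSF number, an HNRNP or SNRP name, SF3A or SF3B with a digit, or U2AF1 or U2AF2, which gave 83 rows among 16336 gene rows in any of 3 tables. The rule reads symbols and no expression value, but it was set with earlier results of these data known. Of the 83 rows, 55 are genes that were present and tested in all 3 tables: 11 SR proteins, 21 hnRNP proteins, 12 snRNP proteins, 9 subunits of SF3A and SF3B, and the 2 subunits of U2AF. The other 28 rows carry pseudogene symbols, and 21 of them are in the MV4;11 tables.

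The 14 libraries form 7 groups of 2. Both are established lines: MV4;11 comes from an acute myeloid leukaemia and carries the fusion KMT2A-AFF1, and EOL-1 was made from an eosinophilic leukaemia. In MV4;11, libraries labelled shEZH2 (a short hairpin against EZH2) were compared with EV, and libraries labelled sgcMyc_1 and sgcMyc_5 (guides 1 and 5, for knockout of cMyc) with sgEV. In EOL-1, sgEZH2 was compared with sgEV. The sample titles give no number for that guide, while the column headers of its counts read sg1. Every group, controls included, received doxycycline at 1 µg/ml for 4 days, and the labels do not say whether cells were clones or pools, nor whether the replicates of a group were grown separately. The p-values therefore rest on a spread among libraries that may be technical only. By its title the study asked how EZH2, the methyltransferase of Polycomb repressive complex 2, acts with cMyc and p300 in gene activation. The comparison here asks how the RNA of the splicing machinery differed when either protein was targeted.

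Splicing removes introns from precursor messenger RNA. U1 and U2 small nuclear ribonucleoproteins (snRNPs) mark the ends of an intron: U2AF binds the polypyrimidine tract and the AG of the 3' splice site, and SF3A and SF3B, the protein complexes of the U2 snRNP, hold it at the branch point. SR proteins bind exonic enhancers and promote the use of nearby sites, while many hnRNPs bind introns or silencers and oppose it. Mutations of SF3B1, SRSF2 and U2AF1 recur in myeloid malignancies, and splicing factors such as SRSF1 are known targets of MYC in other cells.

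Levels are given as CPM, counts scaled to library size with TMM factors within each table. EZH2 RNA stood at 73.3 and 75.8 CPM with EV and at 9.75 and 9.70 with shEZH2, 13.1% of the control level. In EOL-1 it stood at 70.7 and 70.4 with sgEV and at 27.8 and 26.1 with sgEZH2, 38.3% of control. MYC RNA was not lower in the libraries labelled sgcMyc: it stood at 658 and 660.4 CPM with sgEV, 866 and 872 with guide 1 and 818 and 822 with guide 5. A Cas9 cut need not lower the transcript, so this RNA does not check those labels. Gene counts ran from 13313052 to 16274568 per library in MV4;11 and from 24574102 to 30256823 in EOL-1, and the 55 genes took 1.73 to 2.16% of them. All 5 myeloid markers (CD33, SPI1, MPO, PTPRC and CEBPA) were above 1 CPM in every group. Of 7 genes listed for the eosinophil lineage, EPX, CLC, PRG2, PRG3, IL5RA and CCR3 had no row in the EOL-1 table. Only PDGFRA had one, at 60.4 to 62.3 CPM, and that gene alone does not mark the lineage.

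With the EZH2 hairpin in MV4;11, 5 member genes rose and 3 fell. Those that rose were SF3B3, SF3A1, U2AF2, SF3A3 and SF3A2, all of which act in recognition of the 3' splice site and branch point. Those that fell were SNRPN, SRSF4 and HNRNPA2B1. The 8 calls are 14.5% of the 55 genes (edgeR quasi-likelihood test, Benjamini-Hochberg adjusted over all genes, threshold 0.05), against 27.7% of all 13591 genes tested, of which 13.4% were called higher and 14.2% lower. The median log2 fold change was 0.021 over the 55 genes and 0.0024 over all genes.

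In the libraries labelled sgcMyc, 24 member genes rose and 4 fell against sgEV, with both guides averaged. Among the largest rises were SNRPG, HNRNPL, SF3B3, SRSF9 and U2AF2, and those that fell were SF3A2, SNRPA, HNRNPDL and HNRNPA1. The 28 calls are 50.9% of the 55 genes, against 37.3% of all 13948 genes tested (18.6% higher and 18.7% lower). The median log2 fold change was 0.10 over the 55 genes and -0.0029 over all genes. Scaling by the spike-in RNAs in place of the TMM factors moved the median of all genes up by 0.12 in this comparison. Under it 30 of the 55 genes were called higher and none lower, and over all genes 3136 were called higher and 1169 lower, in place of 2590 and 2613. The 4 calls of a fall thus depended on the scaling. Estimates for SF3A2, SNRPA and HNRNPDL stayed negative under all 14 alternatives, the smallest in size being -0.13, -0.097 and -0.048.

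With the EZH2 guide in EOL-1, 2 member genes rose (HNRNPLL and SRSF8) and 15 fell. The falls took in U2AF2, SF3A1, SF3A3, SF3B1 and SF3B3, together with SNRPD3, SRSF4, SRSF9 and 7 hnRNP genes. The 17 calls are 30.9% of the 55 genes, against 26.9% of all 13890 genes tested. By direction, 15.1% of all genes were higher and 11.8% lower. The median log2 fold change was -0.052 over the 55 genes and 0.0051 over all genes. Estimates were negative for 42 of the 55.

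**Figure D1:**
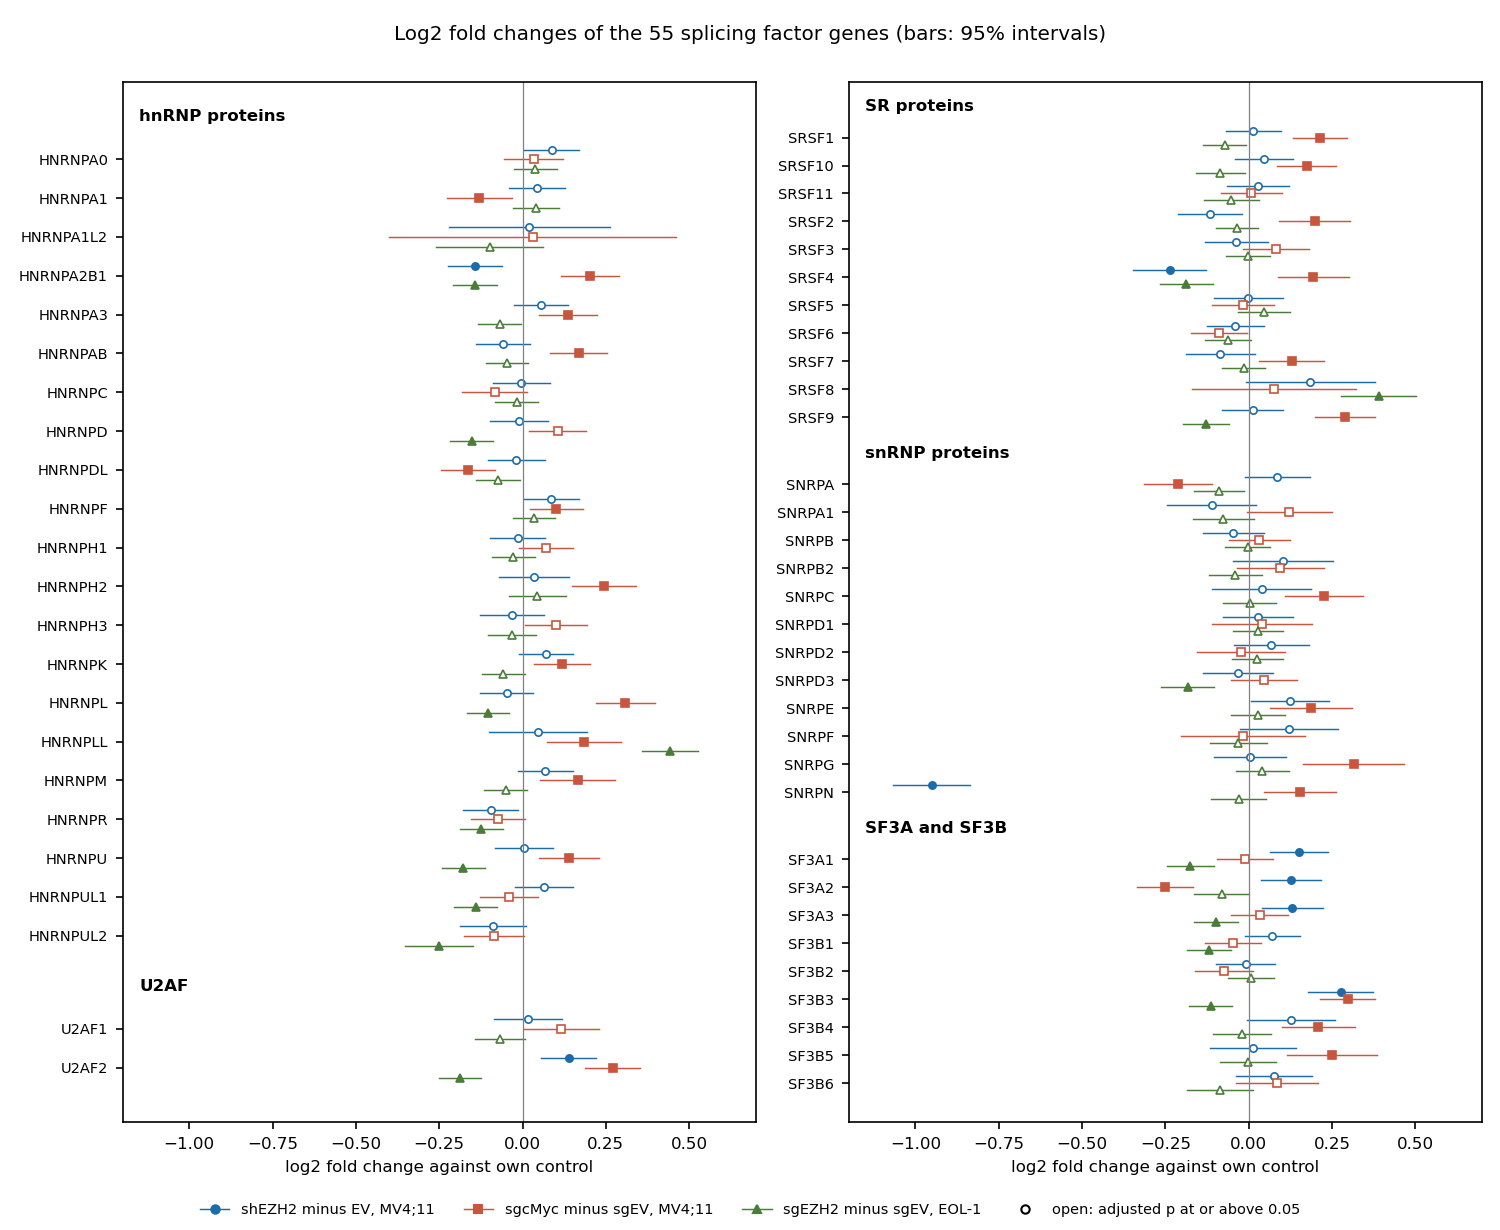
Log2 fold change of each of the 55 splicing factor genes against its own control, with 95% intervals, by family; filled symbols passed the adjusted threshold of 0.05. Most estimates lie within 0.3 of 0, SNRPN with the hairpin lies at -0.95, and SF3A1, SF3A3, SF3B3 and U2AF2 lie to the right of 0 for the hairpin and to the left for EOL-1.

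Several factors that recognise the 3' splice site went opposite ways in the 2 lines. Of 9 SF3A and SF3B genes, 4 rose and none fell with the hairpin in MV4;11, while none rose and 4 fell in EOL-1. That is 44.4% of the 9 genes in each comparison, against 27.7% and 26.9% of all genes. By direction, 13.4% of all genes were called higher with the hairpin and 11.8% lower in EOL-1. The summed level of the 9 genes was 109.1% of control with shEZH2 and 94.1% with sgEZH2, and it was 102.3% and 101.9% of control with sgcMyc guides 1 and 5. SF3A2, a U2 subunit close to the branch point, fell in the sgcMyc libraries, where SF3B3, SF3B5 and SF3B4 rose.

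SF3B3, a large scaffold subunit of SF3B, stood at 424 and 391 CPM with EV and 491 and 495 with shEZH2. It stood at 271 and 272 with sgEV, 330.2 and 337 with sgcMyc guide 1 and 336 and 331 with guide 5, and at 473 and 479 with sgEV and 443 and 437 with sgEZH2 in EOL-1. No treated library overlapped its controls, and the direction was up in MV4;11 and down in EOL-1. With so few libraries per group, such separation can arise by chance and is likely in any gene that was called. The share of all genes that separate was not counted. Separation is thus given here and below as a description and not as further evidence. The log2 fold change was 0.28 with the hairpin (SE 0.044, adjusted p = 8.37e-04), 0.30 with the cMyc guides (SE 0.038, adjusted p = 5.33e-05) and -0.11 in EOL-1 (SE 0.030, adjusted p = 0.00920). The first of these missed the threshold under spike-in scaling (0.23, adjusted p = 0.0732), and the last did without either sgEV library (adjusted p = 0.105 and 0.205).

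U2AF2 encodes the large subunit of U2AF, which contacts the polypyrimidine tract. Its levels were 358 and 369 CPM with EV and 398 and 402 with shEZH2, then 276 and 282 with sgEV, 331 and 338 with guide 1 and 343 and 336 with guide 5. In EOL-1 they were 489.9 and 494 with sgEV and 433 and 431 with sgEZH2. Again the groups did not overlap in any of the 3 comparisons, which adds little to the tests of a called gene. The log2 fold changes were 0.14 (SE 0.038, adjusted p = 0.0186), 0.27 (SE 0.038, adjusted p = 1.26e-04) and -0.19 (SE 0.030, adjusted p = 1.23e-04). U2AF1, the small subunit that reads the AG, moved less and was not called: 0.017, 0.12 and -0.068, with adjusted p-values of 0.828, 0.0988 and 0.179.

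SF3A1, the largest SF3A subunit, stood at 248 and 239.6 CPM with EV and 273 and 268 with shEZH2. In EOL-1 it stood at 181 and 182 with sgEV and 162 and 159 with sgEZH2. The changes were 0.15 (SE 0.039, adjusted p = 0.0148) and -0.17 (SE 0.034, adjusted p = 7.17e-04) on the log2 scale. In the sgcMyc libraries SF3A1 lay between 244.5 and 254.2 CPM and in its sgEV controls at 249.9 and 255, and the 2 groups overlapped.

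SF3A3 stood at 203 and 202 CPM with EV and 216 and 227 with shEZH2, a log2 change of 0.13 (SE 0.042, adjusted p = 0.0377). In EOL-1 the values were 234 and 235 and 218 and 220.4, a change of -0.098 (SE 0.031, adjusted p = 0.0261). SF3A2 stood at 178 and 183 CPM with EV and 196 and 197 with shEZH2 (0.13, SE 0.041, adjusted p = 0.0378). With sgEV it stood at 179.5 and 181, with sgcMyc guide 1 at 152 and 149.5 and with guide 5 at 154 and 151, a log2 change of -0.25 (SE 0.039, adjusted p = 2.78e-04). All 4 sgcMyc libraries were below both controls, and the call ended under spike-in scaling. The hairpin calls of SF3A1, SF3A2, SF3A3 and U2AF2 rested on both shEZH2 libraries: without replicate 1 of that group their adjusted p-values were 0.189, 0.229, 0.109 and 0.175, and without replicate 2 they were 0.111, 0.267, 0.401 and 0.213. They also missed the threshold under spike-in scaling (log2 changes of 0.10, 0.081, 0.083 and 0.092). DESeq2 did not call SF3A1, SF3A2 or SF3A3 with the hairpin, nor SF3A3 in EOL-1. The hairpin calls of SF3A2 and SF3A3 were also lost with limma and without the robust step. SF3B1 is the SF3B subunit that contacts the branch point helix and the one most often mutated in myeloid disease. It was not called in MV4;11 (0.071 with the hairpin and -0.047 with the cMyc guides). In EOL-1 SF3B1 fell by 0.12 (SE 0.032, adjusted p = 0.00960), a call kept under 10 of 12 alternatives.

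**Figure D2:**
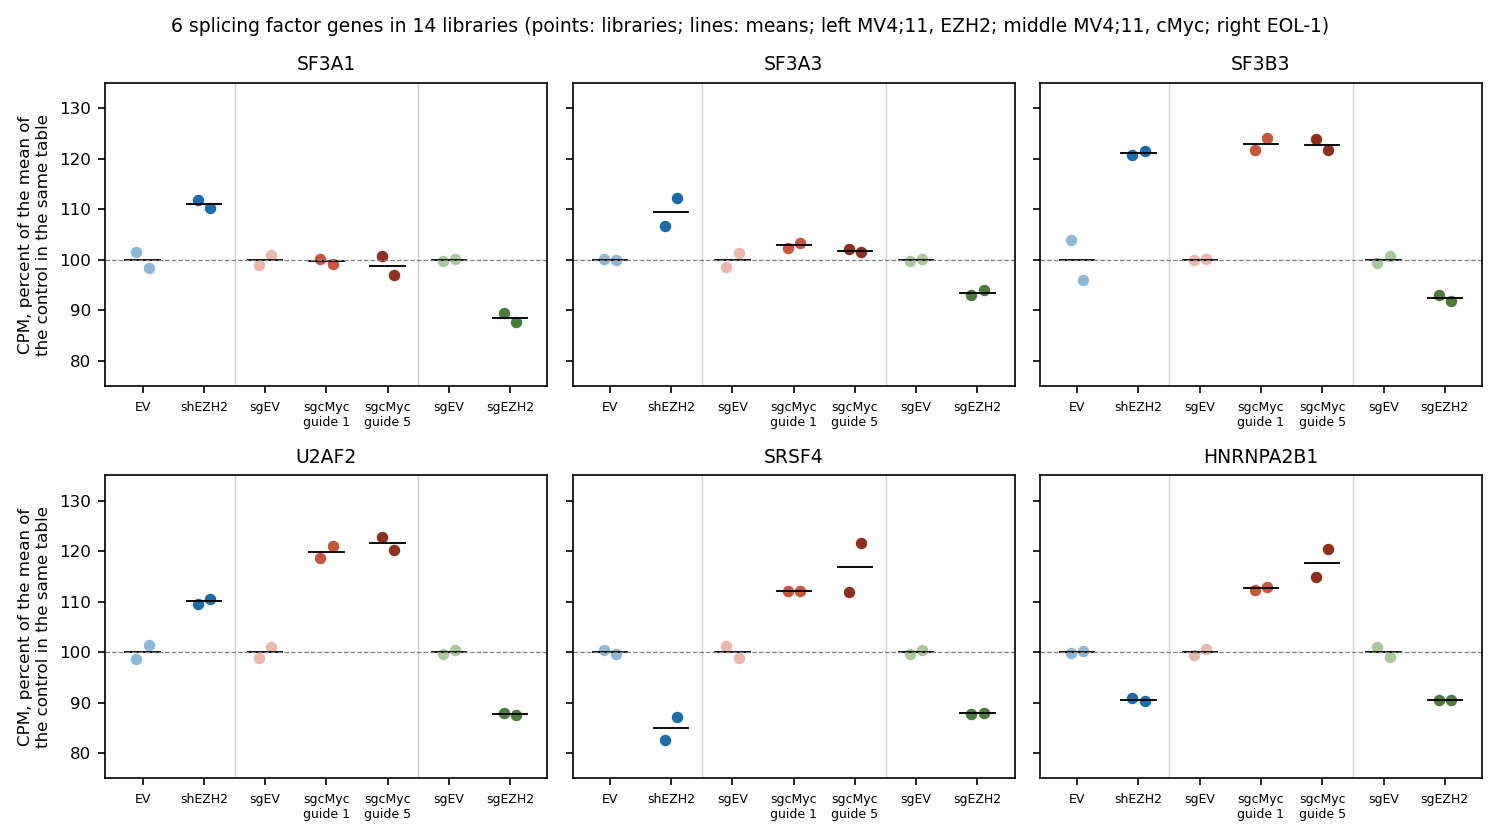
CPM of 6 splicing factor genes in each of 14 libraries, as percent of the mean of the control in the same table; points are libraries and lines are means. SF3A1, SF3A3, SF3B3 and U2AF2 are above the control in the shEZH2 libraries and below it in the EOL-1 sgEZH2 libraries, while SRSF4 and HNRNPA2B1 are below it in both and above it in the sgcMyc libraries.

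Promoter sequence is shown for the 4 genes of 3' splice site recognition called higher with the hairpin that have a RefSeq entry, since they carry the ETS core that many housekeeping promoters share; SF3B3 has no entry in the RefSeq table. The windows are the 250 bases before the start, from RefSeq on GRCh38.p14, on the gene's strand, and the capitals mark CCGGAAG on either strand (a reverse match reads CTTCCGG). SF3A1 lies at chr22:30356895-30357144 (minus strand), SF3A2 at chr19:2236574-2236823 (plus strand), SF3A3 at chr1:37990023-37990272 (minus strand) and U2AF2 at chr19:55654785-55655034 (plus strand).
SF3A1: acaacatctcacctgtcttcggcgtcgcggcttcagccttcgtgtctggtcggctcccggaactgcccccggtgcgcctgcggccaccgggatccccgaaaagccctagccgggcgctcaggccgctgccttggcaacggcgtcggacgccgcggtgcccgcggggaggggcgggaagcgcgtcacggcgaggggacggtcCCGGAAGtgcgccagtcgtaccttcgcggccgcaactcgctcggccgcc
SF3A2: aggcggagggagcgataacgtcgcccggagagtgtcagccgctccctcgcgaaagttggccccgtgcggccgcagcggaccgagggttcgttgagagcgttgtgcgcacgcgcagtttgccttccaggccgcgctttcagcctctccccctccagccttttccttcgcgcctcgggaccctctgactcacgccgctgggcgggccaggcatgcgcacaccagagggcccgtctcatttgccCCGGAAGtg
SF3A3: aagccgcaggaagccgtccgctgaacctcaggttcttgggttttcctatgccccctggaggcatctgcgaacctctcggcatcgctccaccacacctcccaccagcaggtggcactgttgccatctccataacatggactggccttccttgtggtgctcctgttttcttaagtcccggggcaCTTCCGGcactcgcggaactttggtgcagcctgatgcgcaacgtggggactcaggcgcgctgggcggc
U2AF2: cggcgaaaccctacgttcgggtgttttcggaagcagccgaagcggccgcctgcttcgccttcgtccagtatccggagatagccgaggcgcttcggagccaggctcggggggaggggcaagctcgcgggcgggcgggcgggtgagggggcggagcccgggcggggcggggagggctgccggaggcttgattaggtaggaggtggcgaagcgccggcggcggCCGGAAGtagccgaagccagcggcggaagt
Counting 250 bases before to 50 after the start, 51 of the 55 genes had an entry, and 19 of the 51 (37.3%) held CCGGAAG, against 10.7% of 27305 promoters. Of the 19, 4 were called higher and 1 lower with the hairpin, 8 higher and 1 lower in the sgcMyc libraries, and 1 higher and 5 lower in EOL-1. Of the 32 without it, the counts were 0 and 2, 14 and 2, and 1 and 9. Over all genes, the shares called higher and lower were 13.4% and 14.2%, 18.6% and 18.7%, and 15.1% and 11.8%. The 4 called higher with the hairpin are the 4 genes shown above, so these counts are no separate test of the motif. The 27305 promoters were not limited to expressed genes. These are matches of letters and not measured binding sites.

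The snRNP proteins include the Sm ring (the proteins named SNRPB, SNRPD, SNRPE, SNRPF and SNRPG), which wraps the small nuclear RNAs, and proteins particular to U1 (SNRPA, SNRPC) or U2 (SNRPA1, SNRPB2). Of 12 genes, none rose and 1 fell with the hairpin, 4 rose and 1 fell in the sgcMyc libraries, and none rose and 1 fell in EOL-1. These calls are 8.33%, 41.7% and 8.33% of the family, against 27.7%, 37.3% and 26.9% of all genes. The fall in EOL-1 was SNRPD3, from 118 and 116 CPM to 104 and 102 (-0.18, SE 0.038, adjusted p = 0.00148). SNRPD3 was not called in MV4;11, at -0.032 with the hairpin and 0.046 with the cMyc guides.

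SNRPN moved most of all member genes. It encodes the Sm protein SmN, which replaces the SNRPB product mainly in neurons, and it is imprinted, with expression from the paternal allele. It stood at 116 and 123 CPM with EV and 61.7 and 61.9 with shEZH2, a fall of 48.3% (-0.95, SE 0.052, adjusted p = 3.74e-07). The 2 groups were far apart, and the call held under all 12 alternatives tried, with log2 changes of -0.997 to -0.861. In the sgcMyc comparison it stood at 186 and 189 with sgEV, 209 and 213 with guide 1 and 193 and 219 with guide 5, a rise of 0.15 (SE 0.050, adjusted p = 0.0275). In EOL-1 the level was 93.1 and 93.7 with sgEV and 90.7 and 92.3 with sgEZH2, which did not pass (-0.030, adjusted p = 0.642). The SNRPN level also differed between the control groups of MV4;11, whose tables were scaled separately. Such a gap was not particular to SNRPN. Summed over the member genes, the level was 20882 CPM with EV and 17307 with sgEV, while SNRPN was higher with sgEV. With shEZH2 the sum was 101.0% of EV, and with guides 1 and 5 it was 104.2% and 104.6% of sgEV. The hairpin and cMyc comparisons thus started from different control levels, and the cause was not tested. SNURF, which shares its transcript with SNRPN, had a log2 change of -1.02 with the hairpin (SE 0.12, edgeR adjusted p = 7.71e-05), and SNHG14, a non-coding transcript of the same locus, had a change of 0.47 (SE 0.067, adjusted p = 3.75e-04). Both were looked up after the SNRPN values were seen. SNRPN and SNURF overlap, SNHG14 overlaps them in many annotations, and the use of strand in counting is not given in the sources used here, so their reads cannot be told apart with certainty.

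Among snRNP genes, 4 rose in the sgcMyc libraries. SNRPG stood at 54.9 and 58.0 CPM with sgEV, 67.0 and 73.2 with guide 1 and 64.8 and 75.7 with guide 5 (0.31, SE 0.070, adjusted p = 0.00358). SNRPC, a U1 protein that helps pair U1 with the 5' splice site, stood at 58.4 and 59.1, 67.2 and 67.0 and 67.7 and 73.3 (0.23, SE 0.054, adjusted p = 0.00540). SNRPE followed (0.19, SE 0.057, adjusted p = 0.0204), with SNRPN as above. SNRPA, the U1 protein that binds a stem loop of U1 RNA, went the other way, from 139 and 147 to 118 and 123 with guide 1 and 122 and 131 with guide 5 (-0.21, SE 0.047, adjusted p = 0.00328). No treated library overlapped the sgEV libraries in these genes. The SNRPA call ended under spike-in scaling.

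**Figure D3:**
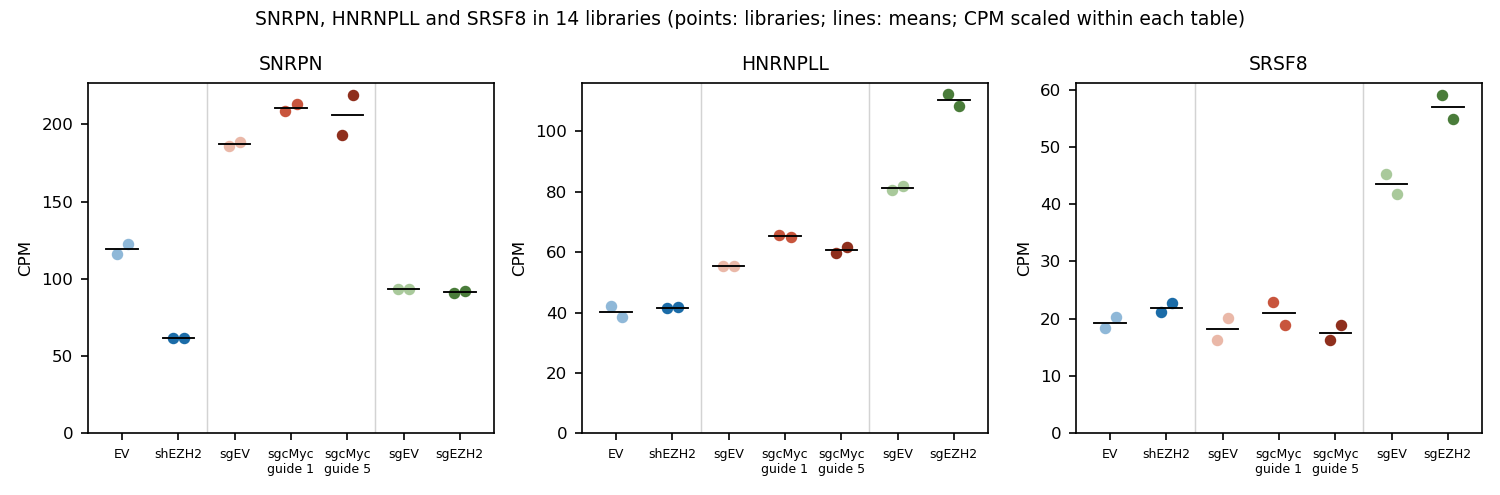
CPM of SNRPN, HNRNPLL and SRSF8 in each of 14 libraries, scaled within each table; points are libraries and lines are means. SNRPN is lower in both shEZH2 libraries than in both EV libraries, and HNRNPLL and SRSF8 are higher in both EOL-1 sgEZH2 libraries than in both controls.

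Of 11 SR protein genes, 6 rose and none fell in the sgcMyc libraries, none rose and 1 fell with the hairpin, and 1 rose and 2 fell in EOL-1. In that order, 54.5%, 9.09% and 27.3% of the family were called, against 37.3%, 27.7% and 26.9% of all genes. The summed level of the 11 genes was 108.2% of control with guide 1 and 110.7% with guide 5, 97.4% with shEZH2 and 97.4% with sgEZH2. SRSF9 stood at 178 and 183 CPM with sgEV, 221 and 222 with guide 1 and 214 and 226 with guide 5 (0.29, SE 0.041, adjusted p = 1.51e-04). SRSF1, the founding member of the family, stood at 363 and 363, 417 and 419.6 and 428 and 420.1 (0.21, SE 0.037, adjusted p = 6.62e-04). All treated libraries were above both controls in each of these genes. SRSF2 (0.20), SRSF4 (0.19), SRSF10 (0.17) and SRSF7 (0.13) also rose, while SRSF3 was not called (0.082, adjusted p = 0.177).

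SRSF4 was the SR gene called in all 3 comparisons. It stood at 114 and 113 CPM with EV and 93.6 and 98.8 with shEZH2, at 99.4 and 97.0 with sgEV, 110.0 and 110.0 with guide 1 and 109.9 and 119 with guide 5, and in EOL-1 at 115 and 116 with sgEV and 101 and 101 with sgEZH2. It was lower in both EZH2 comparisons, with log2 changes of -0.24 (SE 0.050, adjusted p = 0.00456) and -0.19 (SE 0.038, adjusted p = 0.00117), and higher with the cMyc guides (SE 0.049, adjusted p = 0.00724). The hairpin call ended without shEZH2 replicate 1 (adjusted p = 0.0933). SRSF8, a gene close in sequence to SRSF2, stood at 45.3 and 41.8 CPM with sgEV and 59.0 and 54.9 with sgEZH2 in EOL-1 (0.39, SE 0.053, adjusted p = 2.24e-05). In MV4;11 it had 16.3 to 22.9 CPM, and its change with the hairpin did not pass (0.19, adjusted p = 0.144). SRSF9 fell in EOL-1 (-0.13, SE 0.032, adjusted p = 0.00648), and did not pass with the hairpin.

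The 21 hnRNP genes held the most abundant member RNAs. HNRNPA1 alone stood at 2040 to 3238 CPM over the 14 libraries. With the hairpin none rose and 1 fell, in the sgcMyc libraries 10 rose and 2 fell, and in EOL-1 1 rose and 7 fell. The share called was 4.76%, 57.1% and 38.1%, against 27.7%, 37.3% and 26.9% of all genes. The summed level of the 21 genes stayed close to control: 100.5% with shEZH2, 103.5% and 103.3% with guides 1 and 5, and 96.7% with sgEZH2.

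HNRNPA2B1, which binds RNA and reads some modified adenosines, was called in all 3 comparisons. It stood at 1328 and 1332 CPM with EV and 1209.6 and 1200.0 with shEZH2, and at 931 and 941 with sgEV, 1051 and 1056 with guide 1 and 1076 and 1127 with guide 5. In EOL-1 it stood at 1338 and 1312 with sgEV and 1199.5 and 1199 with sgEZH2. The log2 changes were -0.14 (SE 0.037, adjusted p = 0.0136), 0.20 (SE 0.040, adjusted p = 0.00169) and -0.14 (SE 0.031, adjusted p = 0.00209). It was thus lower in both EZH2 comparisons and higher with the cMyc guides, and the groups did not overlap. The hairpin call ended without either shEZH2 library (adjusted p = 0.216 and 0.265), and the EOL-1 call without either sgEV library (0.131 and 0.0542).

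HNRNPL and its paralogue HNRNPLL, which regulates alternative exons of CD45 in lymphocytes, moved in different ways. HNRNPL stood at 382 and 379.9 CPM with sgEV, 465 and 469.9 with guide 1 and 461 and 491 with guide 5 (0.31, SE 0.041, adjusted p = 7.59e-05), the largest change of an hnRNP gene in this comparison. HNRNPLL stood at 80.7 and 81.9 CPM with sgEV and 112 and 109 with sgEZH2 in EOL-1, a rise of 35.8% (0.44, SE 0.040, adjusted p = 1.34e-07). In MV4;11 it stood at 42.1 and 38.4 with EV and 41.5 and 41.7 with shEZH2, where the groups overlapped, and it rose in the sgcMyc libraries (0.18, SE 0.052, adjusted p = 0.0138). PTPRC, which encodes CD45, was detected in both lines, but these gene counts hold no exon values.

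Other hnRNP rises in the sgcMyc libraries were HNRNPH2 (0.25), HNRNPAB (0.17) and HNRNPM (0.17), with HNRNPU, HNRNPA3, HNRNPK and HNRNPF between 0.10 and 0.14. Falls were HNRNPDL, from 262 and 257 CPM to 231 and 232 with guide 1 and 231 and 232 with guide 5 (-0.16, SE 0.037, adjusted p = 0.00382), and HNRNPA1 (-0.13, SE 0.045, adjusted p = 0.0372). HNRNPA1 has many near-identical processed pseudogenes, so its counts depend on how the authors split shared reads. Falls in EOL-1 were HNRNPUL2, from 112 and 100.4 to 90.1 and 88.1 CPM (-0.25, SE 0.048, adjusted p = 8.50e-04), HNRNPU, a nuclear scaffold protein, from 892 and 901 to 799 and 785 (-0.18, SE 0.031, adjusted p = 2.70e-04), and HNRNPD (-0.15), HNRNPUL1 (-0.14), HNRNPR (-0.12) and HNRNPL (-0.10) besides HNRNPA2B1. HNRNPA1, HNRNPA3, HNRNPF, HNRNPK and HNRNPU in the sgcMyc comparison and HNRNPR and HNRNPL in EOL-1 lie outside the rule for named genes and were added after their values were seen.

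The E-box CACGTG, the letters that MYC with MAX prefers, was searched in the same windows, because cMyc was a target. It was in 8 of the 51 promoters (15.7%), against 7.43% of 27305. In the sgcMyc comparison 3 of these 8 genes were called higher and 1, HNRNPDL, lower. Of the 43 without the E-box, 19 were higher and 2 lower. Over all genes in that comparison, 18.6% were called higher and 18.7% lower. Genes with the E-box thus went both ways, and a tie of the motif to either direction was not tested. The upstream windows of the 3 that rose are shown with the E-box in capitals: HNRNPA3 lies at chr2:177212544-177212793 (plus strand), HNRNPH2, which holds 2 copies, at chrX:101407972-101408221 (plus strand), and HNRNPM at chr19:8444725-8444974 (plus strand).
HNRNPA3: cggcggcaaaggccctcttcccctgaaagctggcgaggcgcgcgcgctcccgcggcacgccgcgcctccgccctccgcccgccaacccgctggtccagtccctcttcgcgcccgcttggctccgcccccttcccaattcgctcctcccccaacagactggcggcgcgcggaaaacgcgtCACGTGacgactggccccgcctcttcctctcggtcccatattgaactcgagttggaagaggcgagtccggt
HNRNPH2: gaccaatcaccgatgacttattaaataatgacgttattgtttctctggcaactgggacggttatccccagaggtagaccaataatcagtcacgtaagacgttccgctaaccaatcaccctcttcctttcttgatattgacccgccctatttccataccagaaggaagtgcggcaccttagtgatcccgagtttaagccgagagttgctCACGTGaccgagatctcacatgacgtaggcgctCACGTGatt
HNRNPM: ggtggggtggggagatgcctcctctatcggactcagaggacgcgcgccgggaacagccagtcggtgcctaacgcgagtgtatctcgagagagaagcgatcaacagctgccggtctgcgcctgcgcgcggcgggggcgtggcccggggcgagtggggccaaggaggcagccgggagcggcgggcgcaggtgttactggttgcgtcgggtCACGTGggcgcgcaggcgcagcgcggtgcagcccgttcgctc
HNRNPH2 stood at 108 and 105 CPM with sgEV, 126 and 131 with guide 1 and 123 and 126 with guide 5, so all treated libraries lay above the controls (SE 0.044, adjusted p = 8.52e-04). HNRNPM had 414 and 414 with sgEV, 448 and 465 with guide 1 and 439 and 504 with guide 5, and its treated libraries differed by more between themselves (SE 0.052, adjusted p = 0.0250).

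Guides 1 and 5 against cMyc gave like values in the member genes. Each guide against sgEV called 17 genes higher and 3 lower (guide 1) and 22 higher and 4 lower (guide 5), against 32.2% and 31.2% of all genes called in either direction (16.2% higher and 16% lower with guide 1, 15.7% and 15.5% with guide 5). SF3B3 was at 0.30 with both guides, U2AF2 at 0.26 and 0.28, HNRNPL at 0.30 and 0.32, and SF3A2 at -0.26 and -0.24. The guides share the sgEV libraries, so the difference of the guides was tested itself. None of the 55 genes was called in it (edgeR; 1 at an unadjusted p under 0.05, and 0 by DESeq2), against 0.409% of all genes (0.0789% higher and 0.33% lower). The largest difference was in SRSF8 (-0.25, 95% interval -0.53 to 0.029), and no interval over the 55 genes reached beyond 0.56.

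Calls in the sgcMyc and EOL-1 comparisons were fewer without a control library, over the members and over all genes. Without sgEV replicate 1 or replicate 2 in MV4;11, members called higher numbered 6 and 10 in place of 25 (pseudogene rows included), and 2 in place of 4 were called lower in each case. Over all genes, the same fits called 1427 and 1511 higher in place of 2590, and 1508 and 1502 lower in place of 2613. The 6 named genes HNRNPH2, HNRNPL, SF3B3, SRSF1, SRSF9 and U2AF2 passed under every alternative. Without either sgEV library in EOL-1, 7 in place of 15 members were called lower, and over all genes 1061 (without replicate 1) and 1020 (without replicate 2) in place of 1639. HNRNPLL, SRSF8, HNRNPU, HNRNPUL2, SF3A1, SNRPD3, SRSF4 and U2AF2 passed under every alternative in EOL-1. Monocytic markers also moved with these groups: 3 of 4 (LYZ, CSF1R and CD68; CD14 has no row) had rows, all above 1 CPM. Their summed level was 353 to 367 CPM with sgEV and 3714 to 4107 with the cMyc guides. In EOL-1 it was 255 to 263 with sgEV and 1749 to 1781 with sgEZH2. It was 275 to 291 with EV against 581 to 585 with shEZH2. These rises lay mainly in LYZ. With the hairpin, mean LYZ went from 194 to 502 CPM, while CD68 fell from 39.3 to 27.3 and CSF1R went from 49.7 to 54.1. All 3 markers rose with the cMyc guides and in EOL-1, CSF1R only from 109 to 132 with guide 1 and 119.5 with guide 5. Mitochondrial genes took 2.41 to 2.47% of counts with sgEV and 3.14 to 3.44% with the cMyc guides, and 2.18 to 2.22% with EV and 2.79 to 2.80% with shEZH2. The part of either in the member changes was not tested. In bulk RNA, fewer cells of a kind and less RNA per cell cannot be told apart.

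The EZH2 effects of the lines were compared in 1 model over both tables. In the difference (the hairpin change in MV4;11 minus the guide change in EOL-1), 15 member genes were called higher and 2 lower, 30.9% of the 55, against 26.5% of all 13543 genes (12.5% higher and 14.1% lower). SF3A and SF3B held 5 of the 15: SF3B3 (0.40, SE 0.052, adjusted p = 3.98e-05), SF3A1 (0.33, SE 0.047, adjusted p = 8.87e-05), SF3A3 (0.24), SF3A2 (0.22) and SF3B1 (0.20). U2AF2 differed by 0.34 (SE 0.044, adjusted p = 4.22e-05). The 2 negative differences were SNRPN (-0.91, SE 0.061, adjusted p = 3.50e-08), which fell with the hairpin and was not called in EOL-1, and HNRNPLL (-0.39, SE 0.074, adjusted p = 0.00116), which rose with the guide and was not called with the hairpin. Each EZH2 comparison has controls of its own. Of the 8 genes called with the hairpin and the 17 called in EOL-1, 6 were called in both, 2 with the same sign (SRSF4 and HNRNPA2B1) and 4 with opposite signs (SF3A1, SF3A3, SF3B3 and U2AF2). Over all 12632 genes tested in both comparisons, 1376 were called in both, 786 with the same sign and 590 with opposite signs. Opposite calls were thus common beyond the members. The line, the way EZH2 was targeted (hairpin or guide) and the depth of EZH2 loss cannot be told apart in this design. Neither line had a second hairpin or guide against EZH2. Effects particular to the hairpin or guide used thus cannot be told apart from those of EZH2 loss.

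**Figure D4:**
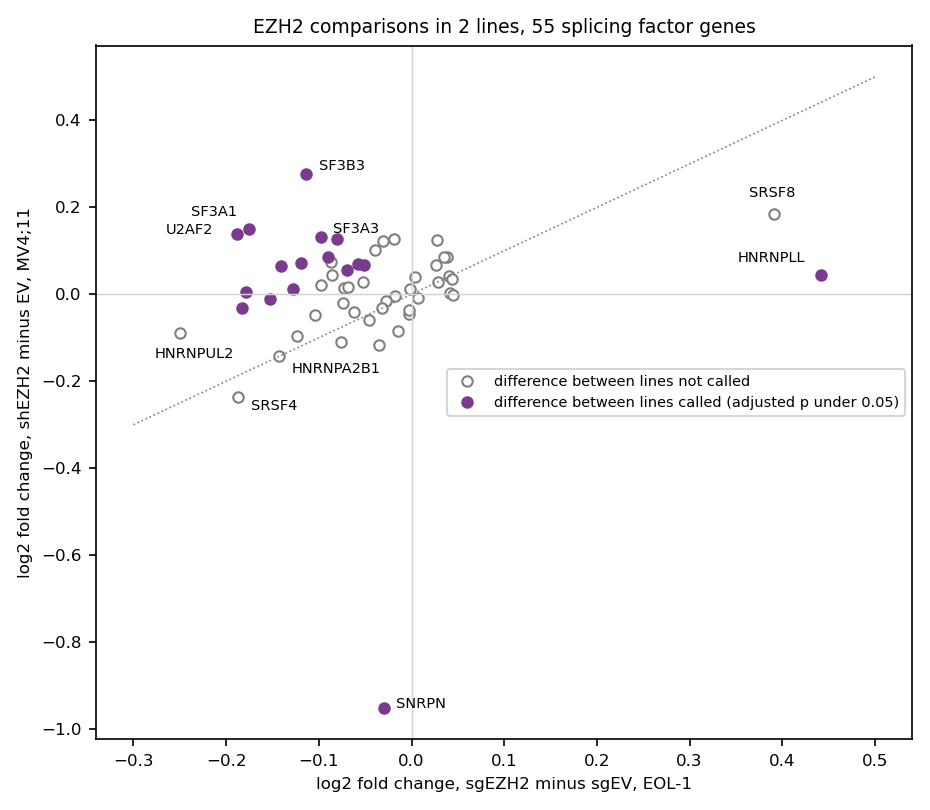
Log2 fold change with the hairpin in MV4;11 (vertical) against that with the guide in EOL-1 (horizontal) for the 55 genes; filled points are genes whose difference between lines passed an adjusted p of 0.05, and the dotted line marks equal change. SF3B3, SF3A1, SF3A3 and U2AF2 lie in the upper left, SRSF4 and HNRNPA2B1 in the lower left near the dotted line, and SNRPN and HNRNPLL far from it.

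Rows with pseudogene symbols gave few calls. Of those tested, 0 of 19 were called with the hairpin, 1 of 19 in the sgcMyc libraries and 2 of 22 in EOL-1. Those are 0%, 5.26% and 9.09% of the rows, against 27.7%, 37.3% and 26.9% of all genes. Their median SE was 0.20, 0.21 and 0.21, against 0.042, 0.043 and 0.033 in the member genes. Few calls thus do not show that these rows were unchanged. HNRNPKP4 rose with the cMyc guides, from 6.30 and 7.49 CPM to 9.44 and 7.95 with guide 1 and 10.0 and 9.50 with guide 5 (0.42, SE 0.13, adjusted p = 0.0250). HNRNPA1P48 had 62.6 and 65.1 CPM with sgEV and 68.8 and 74.3 with sgEZH2 (0.16, SE 0.047, adjusted p = 0.0166). It was placed here by its symbol alone, and the GENCODE annotation lists it as protein coding. HNRNPA1P4 had estimated counts of 3.67 and 2.77 with sgEV and 10.9 and 12.8 with sgEZH2, too few for a fold change to be given. These rows share sequence with their parent genes, so their counts are uncertain.

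Other spliceosome genes, from lists drawn up beside the members, were read in the same fits, in which 27.7%, 37.3% and 26.9% of all genes were called with the hairpin, in the sgcMyc libraries and in EOL-1. Of 14 further U2 and 17S proteins tested, 2 rose and none fell with the hairpin (RBM17 at 0.18 and SF1, the branch point binding protein, at 0.12), 4 rose and 2 fell in the sgcMyc libraries, and none rose and 5 fell in EOL-1, SF1 (-0.20), CHERP (-0.20) and RBM17 (-0.20) among them. The calls are 14.3%, 42.9% and 35.7% of the list, the first of these below the share over all genes. The medians were -0.0034, 0.071 and -0.067 on the log2 scale. RBM17 and SF1, 2 of the 14, stood on the same sides as SF3A1 and U2AF2 in both lines, and their differences between the lines were called (0.39 and 0.33, edgeR adjusted p = 2.78e-04 and 6.59e-05).

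Among 18 proteins of the tri-snRNP, U1 and U5, 3 rose and 3 fell with the hairpin, 6 rose and none fell in the sgcMyc libraries, and none rose and 6 fell in EOL-1. That is 33.3% of the list in each comparison, near the share of all genes called (27.7%, 37.3% and 26.9%). EFTUD2, the GTPase of U5, fell most with the hairpin (-0.78, SE 0.047, edgeR adjusted p = 6.06e-07), followed by SNRNP27 (-0.59), while its U5 partners PRPF8 (0.20) and SNRNP200 (0.18) rose. In EOL-1 PRPF8 (-0.19) and SNRNP200 (-0.17) fell. SNRNP40, another U5 protein, rose in the sgcMyc libraries (0.38).

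Of 31 other splicing regulators tested with the hairpin, 5 rose and 2 fell, 22.6% of the list against 27.7% of all genes. PTBP1, a widely expressed repressor of exons, fell (-0.43, SE 0.039, edgeR adjusted p = 1.31e-05). PTBP2, its paralogue, known to be held down by PTBP1 through a skipped exon, rose (0.91, SE 0.12, adjusted p = 2.19e-04). MBNL1 fell with the hairpin (-0.57) and rose in the sgcMyc libraries (0.28), where 5 of 31 rose and 4 fell (29% against 37.3% of all genes). In EOL-1 1 of 32 rose and 10 fell (34.4% against 26.9%), led by SRRM2 (-0.54, SE 0.040, adjusted p = 8.40e-09), SON (-0.19), MBNL2 (-0.50) and SRRM1 (-0.28), of which SRRM2 and SON form the core of nuclear speckles.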

How the data were processed

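The 14 libraries were made from total RNA with RNeasy and NEBNext Ultra II kits, per the labels. Each of 3 tables held 1 comparison, and its columns were matched to samples by line, target, guide number and replicate number. Raw values, as the authors deposited them, are expected counts of the kind RSEM estimates, with fractions; RSEM, DESeq and hg19 are the names in the submitters' processing notes. Normalized values are on a log2 scale set by the authors. The method behind that scale, the aligner, versions and use of strand were not given in the sources used here.

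Counts were rounded to whole numbers. Spike-in rows (56 in each MV4;11 table, 1.06 to 1.30% of counts) stayed out of library sizes and tests, and 18 rows per table that carry a date in place of a symbol were tested and not named. edgeR 4.0.16 (filterByExpr, TMM, glmQLFit with the robust step, glmQLFTest) tested all genes of a table at once, and p-values were adjusted by Benjamini-Hochberg (threshold 0.05); adjusted p-values in the text are from this test. All 3 groups of the sgcMyc table entered 1 fit, and the difference of the EZH2 effects was an interaction over both EZH2 tables. The method was run on simulated counts with the same spread for every gene, a setting simpler than the data. That run is not used as support for the calls. Chi-square per degree of freedom between replicates was 1.44 to 5.82, above sampling noise, and no library was treated as a copy of another.

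Named were all called members of a family, or the 8 with the largest log2 change where more than 8 were called, members called in all 3 comparisons, up to 8 in the difference of the lines and of the guides, and up to 4 genes of each related list by smallest p. Members and lists were chosen with earlier results of these data known. Alternatives were DESeq2 1.42.0, RLE factors, spike-in scaling, other count filters (none, or a mean of at least 50), no robust step, limma 3.58.1 on the authors' log2 values, a replicate block, and leaving out each library. Promoter windows came from RefSeq on GRCh38.p14. The nonsense-mediated decay list is not reported here for EOL-1.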

Additional observations from a re-analysis of the deposited data

Results flagged for a closer look

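The test of the difference itself (edgeR interaction, adjusted p under 0.05) called 17 members and both targeted genes between the EZH2 comparisons of the 2 lines. Values are the log2 change with the hairpin in MV4;11 minus that with the guide in EOL-1. The targeted gene EZH2 differed by -1.54, and MYC by 0.296.

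Among factors of the 3' splice site, the differences were 0.398 for SF3B3, 0.335 for U2AF2, 0.334 for SF3A1, 0.237 for SF3A3, 0.216 for SF3A2 and 0.198 for SF3B1. All 6 had an estimate above 0 in MV4;11 and below 0 in EOL-1. Among hnRNP genes, they were 0.213 for HNRNPUL1, 0.192 for HNRNPU, 0.150 for HNRNPD, 0.136 for HNRNPK, 0.133 for HNRNPA3, 0.128 for HNRNPM and -0.388 for HNRNPLL. Among snRNP and SR genes, they were -0.913 for SNRPN, 0.184 for SNRPA, 0.159 for SNRPD3 and 0.148 for SRSF9. EZH2 RNA was left at 13.1% of control in MV4;11 and 38.3% in EOL-1, and the part of that gap in these differences cannot be told apart from that of the line or of the method of targeting.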

How the results depend on the processing

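Of 879 values of the named genes under alternatives, 782 kept their direction and their side of the threshold, 97 lost the call and 0 changed direction. Counts below take in all member rows. With the hairpin, 5 members were called higher: DESeq2 gave 2, the fit without the robust step 3, limma 3 and spike-in scaling 0. Leaving out 1 library gave 1 (either shEZH2 library) to 11 higher and 1 to 8 lower in place of 3. In the sgcMyc comparison (25 higher, 4 lower), spike-in scaling gave 0 lower, and leaving out 1 library gave 6 to 33 higher and 2 to 9 lower. In EOL-1 (4 higher, 15 lower), DESeq2 gave 2 higher, and leaving out 1 library gave 2 to 4 higher and 7 to 22 lower. In the difference of the guides (0) leaving out 1 library gave 0 to 6, the 6 without guide 5 replicate 1, and in the difference of the lines (17) it gave 9 to 18. Among the named genes of the last comparison, SF3A2 lost its call, without EOL-1 sgEV replicate 2 (adjusted p = 0.0561). Fits without a library rest on fewer samples by construction; for the other settings the cause was not tested. The deposited tables hold spike-in rows for MV4;11 only, so the EOL-1 fit and the interaction were not run with spike-in scaling, and the interaction was not run on the log2 values.

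Deviations of same-numbered replicates correlated at 0.167 for EV with shEZH2, -0.0135 and 0.00233 for sgEV with guides 1 and 5, 0.252 between the guides and -0.141 in EOL-1. With 2 replicates a group and no shared batch or source in the labels, the numbers are not taken to pair the samples. A replicate block gave 8 higher and 5 lower with the hairpin, 26 and 4 in the sgcMyc comparison, 4 and 16 in EOL-1, 0 between the guides (where calls over all genes went from 57 to 129) and 20 between the lines. The crossed pairing in EOL-1, added after seeing the data, gave 5 higher and 16 lower. Depth limits pseudogene rows most: HNRNPA1P4 rests on 2.77 to 12.8 estimated counts per library.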

Other observations

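Lists of genes that act on splicing factors, or on RNA after splicing, were read against the share of all genes called: 27.7% with the hairpin, 37.3% in the libraries labelled sgcMyc and 26.9% in EOL-1. Of 10 nonsense-mediated decay genes, 1 rose and 6 fell in the sgcMyc libraries (70% of the list), with a median log2 change of -0.32 (all genes -0.0029), led by SMG5 (-0.33, SE 0.048, edgeR adjusted p = 1.71e-04), SMG6 (-0.43), SMG9 (-0.33) and SMG1 (-0.42), the last of these the kinase of UPF1. In the same list 1 rose and 3 fell with the hairpin (40%). Among 9 genes listed as kinases and phosphatases of SR proteins and tested in both EZH2 comparisons, 33.3% were called in each. The list also holds TNPO3, which is neither and was among those called in EOL-1 (-0.12). SRPK1 rose with the hairpin (0.23) and fell in EOL-1 (-0.20), a difference of 0.44 (SE 0.056, edgeR adjusted p = 3.16e-05), while SRPK2 rose in both (0.40 and 0.32).

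Of 18 snRNP assembly genes, 16.7% were called with the hairpin, 27.8% in the sgcMyc libraries and 11.1% in EOL-1, each below the share of all genes. PRMT5, which methylates Sm proteins, fell in the sgcMyc libraries (-0.26), as did its partner CLNS1A (-0.20), while the partner WDR77 rose (0.31). CLNS1A rose with the hairpin (0.27) and in EOL-1 (0.12). Of 9 exon junction complex genes, 1 rose with the hairpin (EIF4A3, 0.23; 11.1% of the list), 2 rose (RNPS1 and EIF4A3) and 1 fell (ACIN1) in the sgcMyc libraries (33.3%), and 4 fell in EOL-1 (PNN, CASC3, ACIN1 and SAP18, from -0.12 to -0.18; 44.4%). SNRNP25 of the minor spliceosome rose most in its list with the cMyc guides (0.65, SE 0.065, edgeR adjusted p = 8.09e-06).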
